A study of Mus musculus with 4 samples.

Results

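The 6 Iroquois homeobox genes of the mouse stand in 2 clusters. Irx1, Irx2 and Irx4 lie on chromosome 13, with 661 kb between Irx1 and Irx2 and 625 kb between Irx2 and Irx4, and Irx3, Irx5 and Irx6 lie on chromosome 8, 556 and 313 kb apart. Open chromatin around them was taken as every peak that overlapped a gene body or the 100 kb on each side of it (GRCm38 positions), with peaks of the 4 libraries merged where they overlapped. All 6 genes were found in the gene table, and their windows, 203 to 210.0 kb long, held 45 of the 53140 merged regions of the series. The data are ATAC-seq peaks, which mark DNA that the Tn5 transposase can reach, from nuclei of whole hearts of C57BL/6 mice at postnatal day 0. The controls were 2 hearts labelled WT. The other group was 2 hearts labelled edKO, whose cardiomyocytes lacked both RXR alpha and RXR beta, nuclear receptors of the retinoid X family. Each library came from a separate heart, and the Cre driver was not found in the labels. Nuclei of other cell types, in which the labels describe no deletion, were part of every library, and open chromatin in fewer cells and weaker opening in each cell cannot be told apart.

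Iroquois proteins are homeodomain transcription factors of the TALE class that pattern tissues during development, and in the heart they take part in chamber identity, conduction and repolarization. Irx4 is a marker of ventricular muscle. Irx3 acts in the ventricular conduction system, where it raises the connexin gene Gja5 and lowers Gja1, and Irx5 helps to set the gradient of potassium current across the ventricular wall by repressing Kcnd2. Irx1 and Irx2 are found in the ventricular septum, and Irx6 is the least studied member. Genes of each cluster are separated by long stretches that hold enhancers, so much of their control lies far from the gene bodies.

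Promoters of members that overlapped called regions are shown first, because there the regions touch a known start site. RefSeq promoters of build GRCm38.p6 (250 bases before to 50 after the start) were matched for 3 of the 6 members, Irx2, Irx3 and Irx4. That of Crnde, a long noncoding RNA gene that starts just beside Irx5, is added because the strongest region of the Irx5 window covers it. The sequences are written 5′ to 3′ on the strand of the gene. Capitals mark matches, on either strand, to the SP and KLF box GGGCGG or to CCAAT.
Irx2, chr13:72628570-72628869, plus strand: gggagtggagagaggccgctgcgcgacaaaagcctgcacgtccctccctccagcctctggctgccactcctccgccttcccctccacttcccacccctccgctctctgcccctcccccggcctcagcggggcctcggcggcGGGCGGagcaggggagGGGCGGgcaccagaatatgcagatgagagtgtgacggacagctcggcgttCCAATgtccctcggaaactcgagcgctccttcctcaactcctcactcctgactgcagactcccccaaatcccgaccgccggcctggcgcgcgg
Irx4, chr13:73260247-73260546, plus strand: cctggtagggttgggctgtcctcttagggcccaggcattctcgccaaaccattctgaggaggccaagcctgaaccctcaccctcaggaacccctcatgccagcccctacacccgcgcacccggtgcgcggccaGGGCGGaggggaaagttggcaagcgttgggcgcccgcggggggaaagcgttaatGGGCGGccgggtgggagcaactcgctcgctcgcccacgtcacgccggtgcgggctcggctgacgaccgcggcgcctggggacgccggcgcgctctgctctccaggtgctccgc
Irx3, chr8:91801605-91801904, minus strand: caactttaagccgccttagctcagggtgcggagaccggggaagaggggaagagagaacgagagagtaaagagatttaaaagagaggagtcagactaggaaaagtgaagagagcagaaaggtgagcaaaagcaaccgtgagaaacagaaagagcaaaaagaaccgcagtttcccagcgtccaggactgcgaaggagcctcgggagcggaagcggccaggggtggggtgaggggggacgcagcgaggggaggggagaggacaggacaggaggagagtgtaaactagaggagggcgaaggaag
Crnde, chr8:92356071-92356370, minus strand: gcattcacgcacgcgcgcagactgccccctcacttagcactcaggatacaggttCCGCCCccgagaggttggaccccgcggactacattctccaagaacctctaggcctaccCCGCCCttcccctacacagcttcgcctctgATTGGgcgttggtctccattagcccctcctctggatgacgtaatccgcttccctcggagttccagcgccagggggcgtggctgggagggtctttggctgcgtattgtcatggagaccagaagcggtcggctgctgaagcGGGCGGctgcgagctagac

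The Irx2, Irx4 and Crnde promoters lay with all 300 bases inside a region called in all 4 libraries, and were rich in G and C (69%, 70.7% and 62.7%, against a median of 52.7% over 32851 RefSeq promoters). The box GGGCGG occurred 2 times in the Irx2 promoter, 2 times in that of Irx4 and 3 times in that of Crnde, and is present in 35.7% of all promoters. CCAAT occurred 1 time each in the Irx2 and Crnde promoters and is present in 37.4% of all promoters. The Irx3 promoter differed in make-up: its strand shown is rich in G and A, its G and C content was 56.0%, and none of the 13 motifs searched occurred in it. Its 2 neighbouring regions covered 191 of its 300 bases.

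The remaining motifs were searched on both strands of the same promoters. They were the nuclear receptor core site AGGTCA (in 16.3% of all promoters), its direct repeats DR1, DR4 and DR5, the GATA site AGATAA, the MEF2 site, the TEAD site GGAATG, the T-box site AGGTGTGA, the AP-1 site TGACTCA, the Iroquois site ACANNTGT (7.38%) and the E-box CAGCTG. None occurred in the Irx2, Irx3, Irx4 or Crnde promoters. The promoters of Gm20554, Ndufs6, Mrpl36 and Gm39222, in the same windows, also overlapped called regions and are not printed. That of Mrpl36, called in every library, held AGGTCA 1 time and AGATAA (in 11.2% of all promoters) 1 time. In the other unprinted ones none of these motifs occurred. The search covered windows of 300 bases only, and sequence of the distal regions was not used here.

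Across all 6 windows the shares of WT-only regions and of regions called in every heart were near those of the series, while calls in edKO 2 alone were more frequent (22.2% against 11.5%). Regions were called 28 and 30 times in WT 1 and WT 2 and 23 and 27 times in edKO 1 and edKO 2, or 29 ± 1.41 in WT and 25 ± 2.83 in edKO (SD, n = 2 each). Both edKO hearts lay below both WT hearts, a ratio of 0.862 against 0.728 for all merged regions. With 50 kb in place of 100 kb on each side the groups overlapped, at 18 and 19 regions in WT and 13 and 20 in edKO. A two-sided exact permutation test returned p = 0.333, below which a design of 2 and 2 hearts cannot go. Once each list was trimmed to its strongest peaks, as many as the shortest list holds, the means were 25 and 25, so the difference was 0.

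Of the 25 Iroquois regions called in both WT hearts, 15 were called in all 4 hearts (60.0%, against 59.0% of such regions in the whole series). Another 5 were called in 1 edKO heart (6079 of 28087 in the series), and 5 in neither edKO heart. These WT-only regions are 5 of 25, and the background over the series is 19.4%. The reverse pattern, called in both edKO hearts and in neither WT heart, occurred 0 times among the 15 regions called in both edKO hearts, where the background is 1.35%. At lists of equal length 3 of 22 regions were WT-only, beside 10.6% in the series. The share of WT-only regions in the Iroquois windows was thus near the background, in the full and in the shortened lists. Without 1 heart, so that fewer calls were required, the WT-only count was 9 (without WT 1), 6 (without WT 2), 8 (without edKO 1) and 7 (without edKO 2), beside WT-only shares in the series of 34.2%, 30.4%, 35.9% and 24.6%. The edKO-only count was 10 of 27 without edKO 1, where the share in the series was 24.2%, and 2 of 23 without edKO 2, where it was 10.1%.

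**Figure D1:**
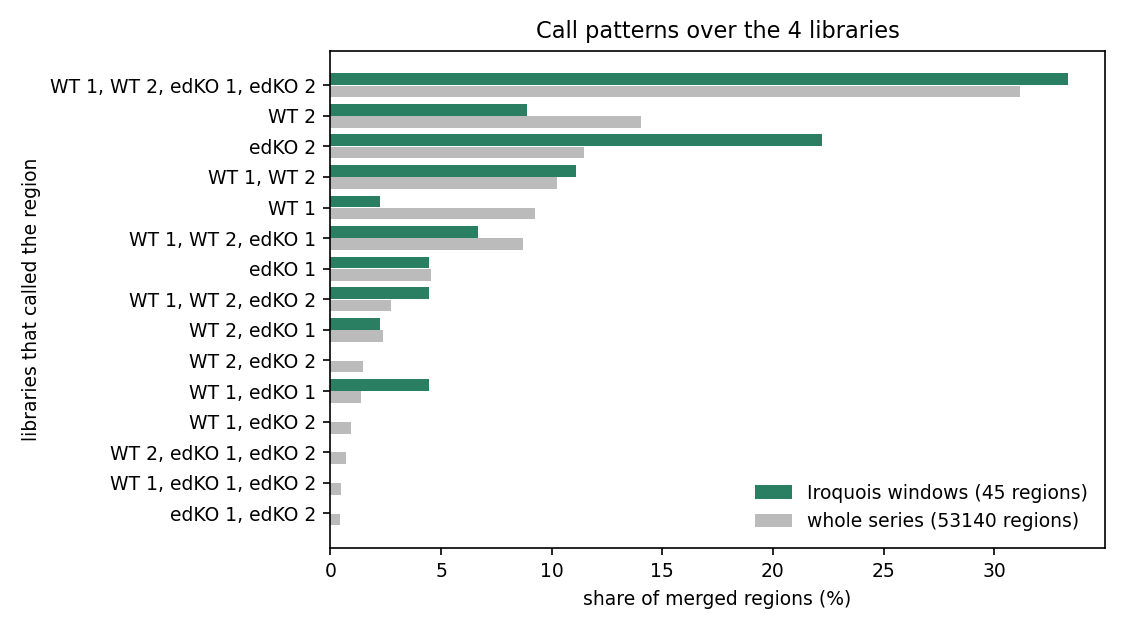
Share of merged regions (x axis, percent) with each pattern of calls over the 4 libraries (y axis), for the 45 regions of the Iroquois windows (green) and the 53140 regions of the series (grey). The pattern called in all 4 libraries holds 33.3% and 31.2%, the WT-only pattern 11.1% and 10.2%, and the pattern called in edKO 2 alone 22.2% and 11.5%.

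The libraries differed in enrichment and in a rough guide to depth. The lowest background solved for any peak of a library, used as a rough guide to its depth, was 1.81 and 1.80 in the WT hearts. It was 1.51 and 1.92 in the edKO hearts. Among each library's 10000 strongest peaks the fold enrichment had a median of 10.8, 11.5, 10.2 and 7.61. The edKO 2 library thus had the weakest enrichment. It also called 10 Iroquois regions that no other library called, 22.2% of the 45, against the same background of 11.5%. Their −log10 p, the strength of a peak over the local background as the authors' peak caller gave it, was 3.75 to 8.57. Their pileup, the solved number of reads or fragments stacked at the summit, was 8 to 22. The 17 regions called in 1 library (37.8%, with a background of 39.3%) reached a −log10 p of at most 10.7, and the 15 called in all 4 libraries reached up to 93.3. The part of depth and enrichment in the calls was not tested.

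**Figure D2:**
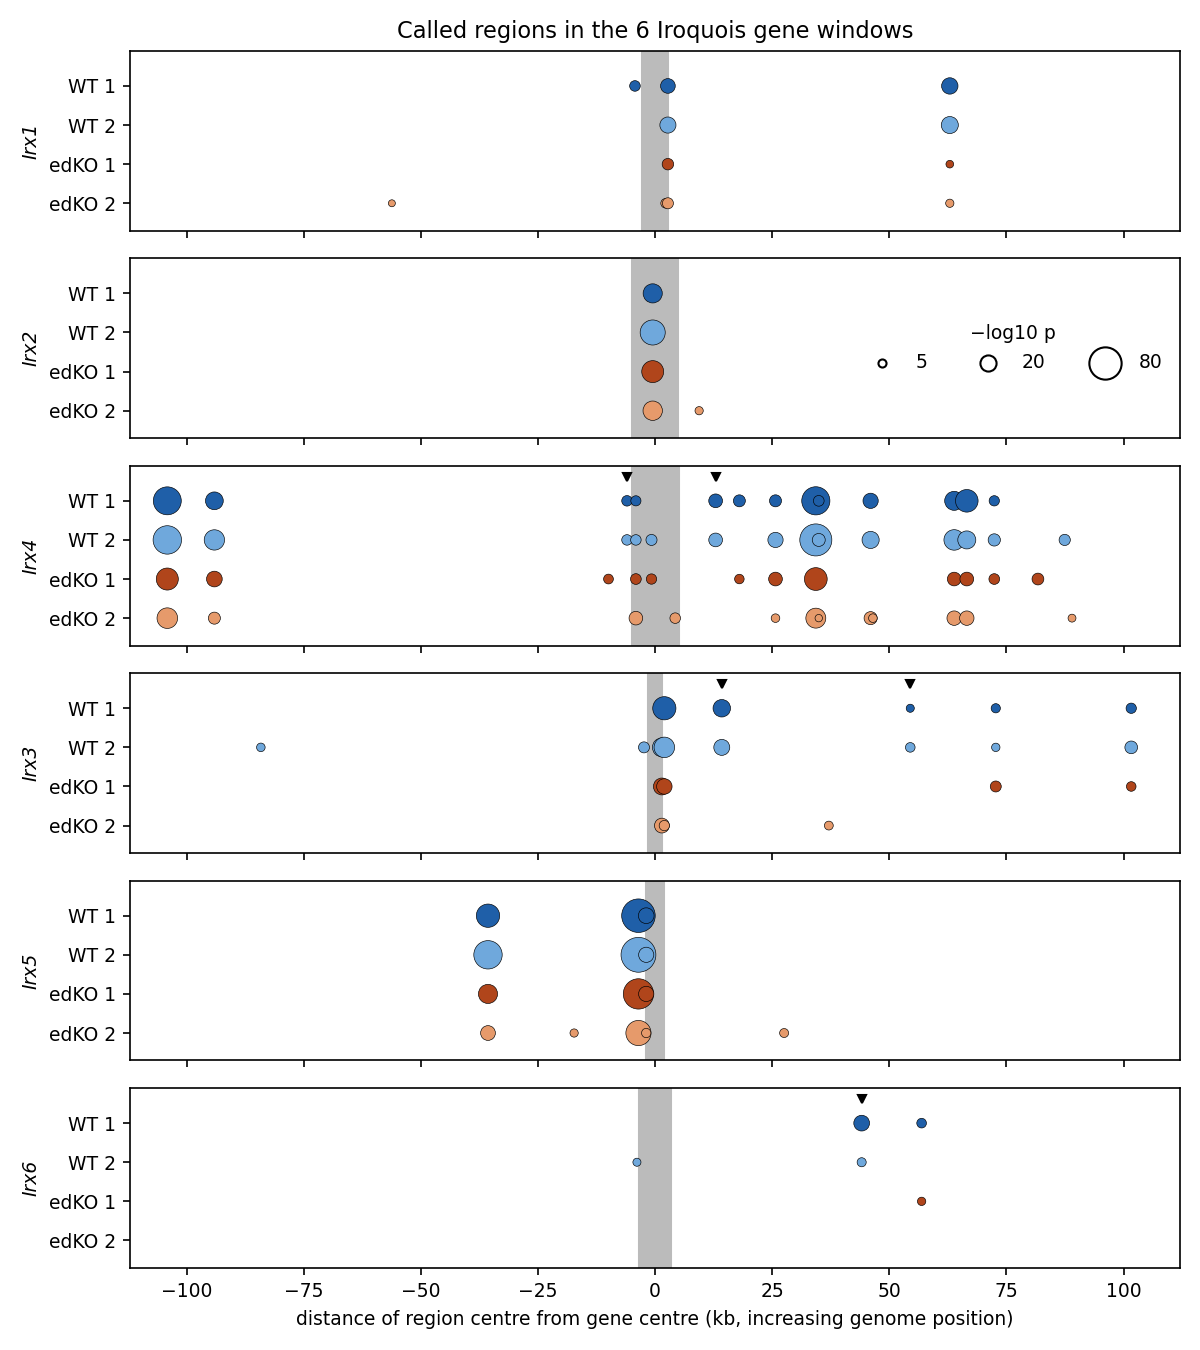
Each panel is 1 gene window, with the distance of a region's centre from the gene's centre on the x axis (kb, increasing genome position) and the 4 libraries as rows. The area of a circle is proportional to the −log10 p of the call, the grey band is the gene body, and triangles mark the 5 WT-only regions, of which 2 lie by Irx4, 2 by Irx3 and 1 by Irx6.

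Irx4, the ventricular gene (73259589 to 73269622 on chromosome 13), had by far the densest window of the 6. Its 20 regions, 9.52 per 100 kb, put it at the 92.6th percentile of the windows of 21627 protein-coding genes, whose median is 3.47 per 100 kb. The strongest lay 28958 bp beyond the gene (73298580 to 73299264), with −log10 p of 60.9 and 78.8 in the WT hearts and 39.8 and 30.5 in the edKO hearts (replicate 1 first). Next came a region 98843 bp on the opposite side of Irx4 (73160242 to 73160746), at 60.0, 62, 37.3 and 32.5. Both were called in every heart, and both edKO values lay below both WT values. Unscaled pileups had this order at 84.3% of the regions of the series called in all 4 libraries. The share for −log10 p was not counted.

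The third strongest region in that window (73330838 to 73331462) lay over Mrpl36, which encodes a mitochondrial ribosomal protein, at −log10 p of 39.2, 24.9, 14.5 and 16.0. A further region (73328212 to 73328704) covered the ends of Ndufs6, a complex I subunit, and Mrpl36, at 27.7, 32.3, 14.4 and 16.0. These genes share the Irx4 window, and of its 20 regions 10 lay nearest to Irx4, 5 to Ndufs6 and 5 to Mrpl36 among protein-coding genes. The target gene of a region is not known from its position. With only those nearest to a member counted, all 5 WT-only Iroquois regions remained in the count, beside 12 regions called in all 4 libraries.

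The Irx4 promoter region (73260213 to 73260816), which holds the sequence printed above, was among the weaker ones in WT 1, WT 2 and edKO 1. Here the WT hearts had −log10 p of 7.92 and 8.51 and the edKO hearts 8.86 and 14.3, with pileups of 27, 27, 19 and 32. In edKO 2 the region held 2 merged peaks, against 1 in each other library, and the stronger peak gave the value. Among the 15 regions called in all 4 libraries it was the 1 region at which an edKO library held the highest −log10 p. It was chosen here after the values were seen. Within each library's own list it ranked at the 27.9th, 32.8th, 39.4th and 70.0th percentile of −log10 p. Ranks in lists of different length do not measure a change.

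A neighbouring region (73258485 to 73258754), 835 bp from the Irx4 gene body, was WT-only, with −log10 p of 8.53 and 8.52 and pileups of 25 and 24. The region inside the gene (73263633 to 73264059) was called in WT 2 and edKO 1, at 9.42 and 8.21, and 1 near its far end (73268802 to 73269015) in edKO 2 alone, at 8.57. The second WT-only region of this window lay 7745 bp beyond the gene (73277367 to 73277705), at 14.5 in each WT heart with a pileup of 26 at each summit. A region 4824 bp from the gene (73254566 to 73254765) was called in edKO 1 alone, at 7.37. So the Irx4 promoter stayed called in every heart. Of the regions close to the gene, 2 had calls in the WT hearts only, and others had a call in a single edKO heart only.

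Irx3, the conduction system gene (91798511 to 91801654 on chromosome 8), was called at its start site in every heart. Its promoter was covered by a region over the start (91801326 to 91801750), with −log10 p of 15.5, 27.4, 21.9 and 16.8 in WT 1, WT 2, edKO 1 and edKO 2, and by another 206 bp outside the gene body (91801860 to 91802267), at 41.4, 32.3, 18.4 and 8.20. At the first the WT and edKO values overlapped, and at the second both edKO values lay below both WT values. Pileups at the second were 74, 61, 33 and 24, where the medians over the regions called in all 4 libraries of the series were 46, 49, 30 and 26.

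The strongest WT-only region of all 6 windows lay 12465 bp from Irx3 (91814119 to 91814535), inside Irx3os, a long noncoding RNA gene beside Irx3. The WT hearts had −log10 p of 23.5 and 19.6, with fold enrichments over local background of 8.0 and 7.84 and pileups of 35 and 28. It was called in neither edKO heart, and its mean rank in the WT lists was the 69th percentile. By this rank, 2 of the 9 Iroquois regions at the 50th to 75th percentile were WT-only, where the background is 8.86%. The counts were 2 of 6 at the 25th to 50th percentile (37.7%), 1 of 2 below it (57.8%) and 0 of 8 above the 75th (0.390%).

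The other WT-only region of the Irx3 window, also inside Irx3os (91854412 to 91854707), was weak, at −log10 p of 5.04 and 7.13. Further out, regions 70945 and 99931 bp from Irx3 had calls in WT 1, WT 2 and edKO 1 (6.54, 5.42 and 9.28, and 8.16, 12.4 and 7.09) and none in edKO 2. The last of these reached over the outer border of the window, and the next region beyond it, 165260 bp from the gene, was WT-only at 6.79 and 5.42. A region at the opposite end of the Irx3 gene, 677 bp away (91797609 to 91797834), was called in WT 2 alone at 9.34, and 1 inside the gene (91800902 to 91801158) in edKO 2 alone at 5.86. In the Irx3 window, then, both regions at the start site were called in all hearts and both WT-only regions were distal.

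Irx5, which restrains potassium channel expression (92357796 to 92361456 on chromosome 8), had the strongest region of the 45 beside it. The region (92355706 to 92356459) ended 1337 bp from Irx5 and covered the start of Crnde, whose promoter is printed above. Its −log10 p was 86.3, 93.3, 70.6 and 48.6, its fold enrichment 9.97, 10.6, 10.8 and 8.40, and its rank the 93.8th, 94.3th, 93.5th and 93.5th percentile of the 4 lists. The fold enrichment in edKO 1 lay above that of both WT hearts, while the −log10 p and the pileups (132, 137, 100 and 80) were lower in both edKO hearts.

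The Irx5 gene end itself (92357546 to 92357933) was called at 19, 17.7, 17.9 and 6.69, with overlapping WT and edKO 1 values and a lower edKO 2 value. A distal region 33558 bp away (92323698 to 92324238) stood at 41.8, 61.9, 28.2 and 16.8. Each of the 3 Irx5 regions shared by the WT hearts was also called in both edKO hearts. The 2 others, 15296 and 25591 bp from the gene, were called in edKO 2 alone, at 5.24 and 6.22.

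Irx1 (71958232 to 71963723) and Irx2 (72624430 to 72634196), the septal genes of chromosome 13, had few regions, 5 and 2. Irx2 had a single region called in all hearts (72628319 to 72629304), 986 bp wide, over its start site and that of the noncoding gene Gm20554. There −log10 p was 28.2 and 48.3 in the WT hearts and 36.9 and 28.8 in the edKO hearts, and the groups overlapped. Its other region, 4399 bp from the gene, was called in edKO 2 alone at 5.24. At 0.953 regions per 100 kb the Irx2 window stood at the 21.5th percentile of all gene windows.

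Irx1 was called in every heart at 1 end of the gene (71963412 to 71964035), at 16.6, 19.95, 10.2 and 9.38. Just inside that end (71963078 to 71963367) edKO 2 alone had a call, at 7.01, and the other Irx1 regions were called in WT 1 alone (71956558 to 71956822, at 8.66) and in edKO 2 alone (71904701 to 71904900, at 3.75). A second region called in all hearts, 59937 bp from Irx1 (72023660 to 72024125), stood at −log10 p of 20.6 and 22.4 in the WT hearts but 4.53 and 5.24 in the edKO hearts, the 3.5th and 14.1th percentile of those lists. Its pileups were 27, 27, 8 and 10. This gap was the widest, relative to the WT values, among the 15 regions called in all hearts, and the region was singled out after its values were seen. It passed the authors' threshold in every heart and so counts as shared, but at a −log10 p of 5 or more it was not called in edKO 1, and at 10 or more it was WT-only. It was not tested on its own.

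Pileups, which were not scaled for the depth of the libraries, differed the same way at most shared regions of the series. They were lower in both edKO than in both WT hearts at 12 of the 15 shared Iroquois regions, where the background over 16528 regions was 84.3%. The exceptions were the Irx2 and Irx4 promoter regions and the region 20460 bp beyond Irx4 (73290082 to 73290550), with pileups of 22, 29, 22 and 14. The Iroquois count was thus near the background.

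Irx6 (92674289 to 92680956 on chromosome 8) was the 1 member with no region called in all hearts. A region 360 bp from the gene (92673578 to 92673929) was called in WT 2 alone, at −log10 p of 5.0 with a pileup of 10 at the summit. A WT-only region 40630 bp away (92721586 to 92721867) stood at 19 in WT 1 and 6.33 in WT 2, with pileups of 24 and 11, so the WT hearts differed widely between themselves. The remaining region, 53427 bp away, was called in WT 1 and edKO 1 at 7.17 and 5.36, and edKO 2 had 0 calls in the window. Among protein-coding genes, 47.3% had a region within 1 kb of an end called in all 4 libraries. Irx1, Irx3, Irx4 and Irx5 had such a region, Irx6 did not, and that of Irx2 lay at its RefSeq start site, 3889 bp from the nearest end of the gene in the table.

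**Figure D3:**
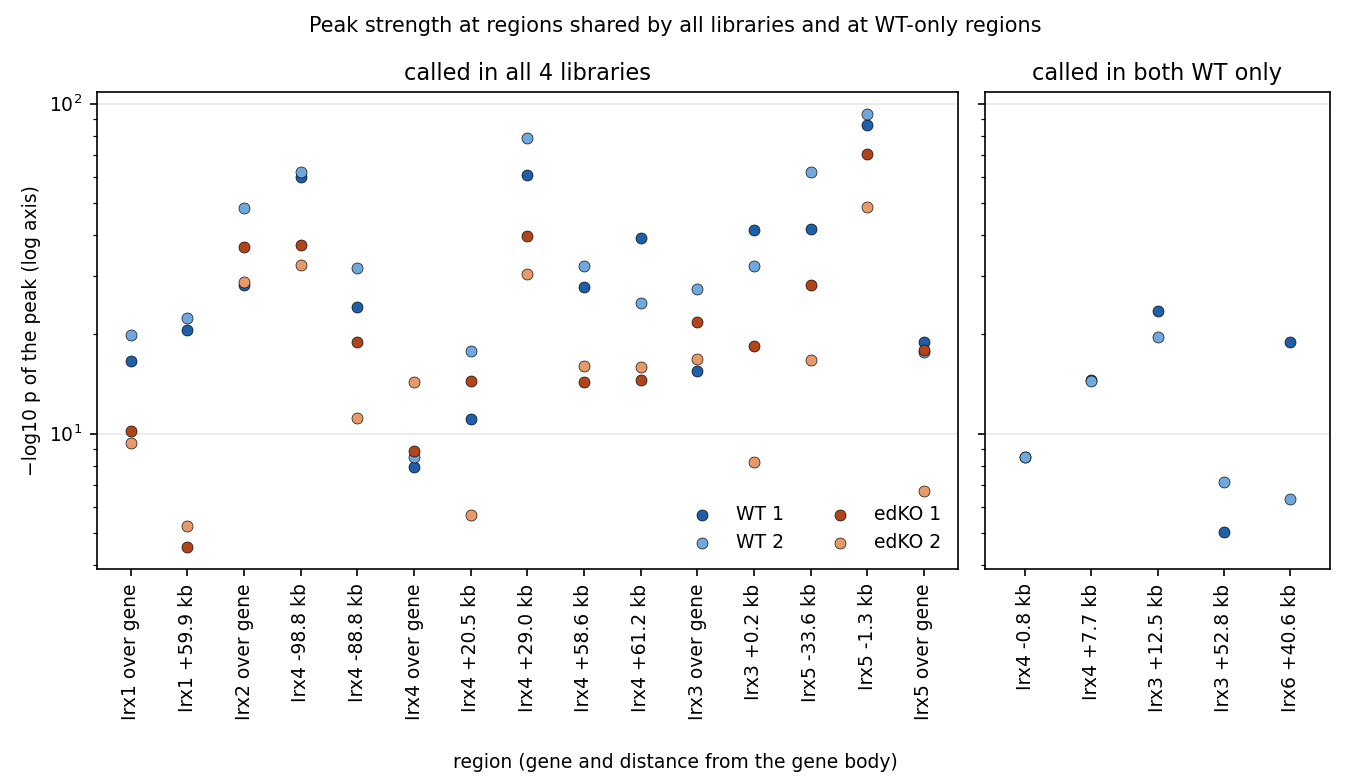
The −log10 p of the call (y axis, log scale) in each of the 4 libraries at the 15 regions called in all libraries (left) and the 5 WT-only regions (right), named by gene and distance from the gene body. The values span 4.53 to 93.3 on the left, and the Irx1 region at +59.9 kb has the widest gap between the WT and edKO points.

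**Figure D4:**
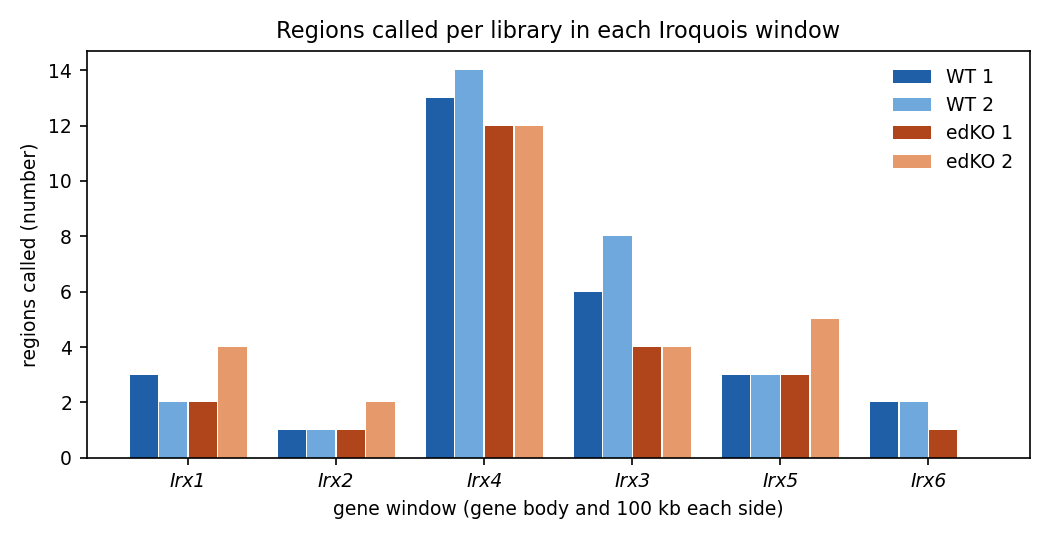
Number of merged regions called in each library (y axis) in the window of each gene (x axis), 1 bar per heart. The Irx4 window holds 13, 14, 12 and 12 regions in WT 1, WT 2, edKO 1 and edKO 2, and the Irx6 window 2, 2, 1 and 0.

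The clusters were also counted apart. On chromosome 13, 17 and 17 regions were called in WT 1 and WT 2 and 15 and 18 in edKO 1 and edKO 2, with 2 WT-only regions among 15 called in both WT hearts. On chromosome 8 the calls were 11 and 13 against 8 and 9, with 3 WT-only regions among 10. Over all regions of chromosome 13 the calls were 1494 and 1607 against 1098 and 1101, with 21.8% WT-only, and over those of chromosome 8 they were 1897 and 2115 against 1510 and 1428, with 20.3% WT-only. The difference between the clusters was not tested. Of all 45 regions, 30 lay between protein-coding genes (66.7%, against 31.4% in the series), of which 4 of 16 shared by the WT hearts were WT-only (background 29.2%), in windows that hold only Ndufs6 and Mrpl36 as other coding genes. At gene ends 1 of 8 was, the region by Irx4 (background 5.92%), and over gene bodies 0 of 1 (27.0%).

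Genes that work with the Iroquois factors in the heart were read from the same lists. In the windows of 18 regulators of chambers and conduction, such as Gata4, Nkx2-5, Tbx3 and Hand2, 22 of 94 regions shared by the WT hearts were WT-only (23.4%) and 2 of 58 called in both edKO hearts were edKO-only, where the backgrounds are 19.4% and 1.35%. In those of 10 genes downstream of or co-regulated with Iroquois factors, 14 of 72 were WT-only (19.4%) and 2 of 51 edKO-only. Kcnd2, the potassium channel gene repressed by Irx5, had 1 region called in both WT hearts and it was not WT-only. Gja5 had 1 WT-only region of 5, and Gja1 had 1 region called in both WT hearts, and it was called in all hearts.

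As a check of the tissue, 9 of 10 cardiomyocyte markers had a region within 1 kb of a gene end in all 4 libraries, and the tenth, Myl7, in edKO 2. Markers of other cells had gene-end regions in fewer cases: endothelial and endocardial markers 1, 2, 2 and 2 of 6, fibroblast markers 3, 4, 2 and 2 of 5, smooth muscle and pericyte markers 3, 3, 2 and 2 of 5, epicardial markers 1 of 3 in each library, immune markers 1, 1, 0 and 0 of 3, erythroid markers 1 of 2 in each, and neuronal and Schwann markers 0 of 3, in WT 1, WT 2, edKO 1 and edKO 2. Over all 21627 protein-coding genes the share with a gene-end region was 54.2%, 55.5%, 51.5% and 52.1%. Among the fibroblast, smooth muscle and immune markers, Tcf21 and Spi1 had a gene-end call in each WT heart and none in the edKO hearts, while Pdgfra, Cspg4 and Pdgfrb had one in a single WT heart. Col1a1, Col1a2, Myh11 and Acta2 of the same lists had one in every heart, and Dcn, Rgs5, Ptprc and Csf1r in none. The endothelial marker Cdh5 went the other way, with a call in WT 2 and both edKO hearts and none in WT 1. The part of these cells in the Iroquois calls was not tested.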

How the data were processed

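ATAC-seq peak lists of 4 hearts, 2 WT and 2 edKO, were grouped by sample title. The authors deposited 1 list per library, so replicates were not pooled. The submitters' processing notes name CASAVA, bcl2fastq, cutadapt, Bowtie2, SAMtools and MACS2 and the builds mm10 and GRCm38. No source used here gives their versions, a Tn5 shift or duplicate handling. The deposited lists give, per peak, a fold enrichment (a ratio to local background), the −log10 p and −log10 q of the summit, the summit position and a score, of which the q and the score were not used. These are the authors' values and describe peaks within a list.

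Peaks overlapping by at least 1 bp were merged with Python 3.11.15 and pandas 2.3.3, and a library was called where any of its peaks overlapped a region. Percentiles are ranks of −log10 p within a list. The pileup was solved from the authors' fold and −log10 p under a Poisson tail, whole within 0.001 in −log10 p for at least 99.9963% of the peaks. Depth is otherwise unknown, and an uncalled region is one below the threshold, not closed chromatin. Gene positions, without strand, came from RefSeq (GRCm38.p6), and a gene end was within 1 kb. Merging and pileups were tested on simulated data.

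All members, every region within 1 kb of a member's end, every WT-only or edKO-only region and the 3 strongest regions of each window by mean percentile were to be described. The members and lists were chosen with earlier results of these data known. Regions are not replicates, so only the number of calls per heart was tested (exact permutation, two-sided). Alternatives were other merging rules, thresholds, list lengths, window sizes and leaving out each heart.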

Additional observations from a re-analysis of the deposited data

How the results depend on the processing

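The number of Iroquois regions called was higher in WT than in edKO hearts by 4 (29 against 25), and by 2 to 6 without 1 heart. It was higher by 2 with 50 kb each side (18.5 against 16.5, exact permutation p = 1, with overlapping groups), by 9.5 with 200 kb each side, by 7 where each list was held to a −log10 p of 10 or more, and by 0 with lists of equal length (25 in each group). With a replicate block, pairing same-numbered hearts, the difference was again 4 (exact sign-flip p = 0.5, the smallest p for 2 pairs). The numbers name separate hearts, and over 16568 shared regions the differences between replicates correlated across groups at r = −0.0208.

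The WT-only count of 5 became 3 at a −log10 p of 10 or more in each list (2 of the 5, and the region 59937 bp from Irx1), 3 with lists of equal length (all from the 5), 2 with that threshold in both WT hearts only, and 8 with 200 kb each side. At a −log10 p of 10 or more in each list, the WT-only regions made up 3 of 17 called in both WT hearts, beside 21.6% in the series. They made up 3 of 22 with lists of equal length, beside 10.6%. With 1 heart left out, when fewer calls are required, they numbered 6 to 9 (9 without WT 1, 6 without WT 2, 8 without edKO 1 and 7 without edKO 2), where the shares over the series were 34.2%, 30.4%, 35.9% and 24.6% and those of the Iroquois windows 9 of 30, 6 of 28, 8 of 25 and 7 of 25. The edKO-only count of 0 became 10 without edKO 1 and 2 without edKO 2, a range of 0 to 10 over the hearts left out, since a region then needs a single edKO call, beside 24.2% and 10.1% in the series (10 of 27 and 2 of 23 here). The 15 regions called in all libraries, of 25 called in both WT hearts, became 9 of 17 at a −log10 p of 10 or more. They became 15 to 18 without 1 heart, and 10 and 22 with 50 and 200 kb each side. The number of regions changed too, in the series from 53140 to 25504 at a −log10 p of 10 or more. Shares in the series were not counted for these settings, nor for the WT-only counts of 2 and 8. By position, the WT-only regions 12465 bp from Irx3 and 7745 bp from Irx4 were WT-only under all 12 alternatives run, those near Irx6, Irx4 (835 bp) and Irx3 (52758 bp) under 10, 11 and 9. Leaving out a heart or widening the window could not end a WT-only call. The 2 regions named first also lay above both −log10 p cut-offs, and the last lies outside windows of 50 kb. Most of these outcomes were thus fixed in advance, and the tally does not measure how firm the calls are. Counting only regions nearest to a member was added after the data were seen.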

Other observations

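The stretches between the Iroquois windows, which belong to no member's window, held 15 further regions. All 4 stretches lack protein-coding genes. The stretch of 461 kb between the windows of Irx1 and Irx2 held 6 regions, of which 2 were called in all 4 hearts and 2 were WT-only, at −log10 p of 9.94 and 6.05 in WT 1 and WT 2 (72198855 to 72199090) and of 11.9 and 13.0 (72370987 to 72371370). These were 2 and 2 of the 4 called in both WT hearts, where the series had 59.0% and 19.4%. Between protein-coding genes the WT-only share of the series was 29.2%. The stretch of 425 kb between Irx2 and Irx4 held 3 regions, 1 called in WT 1 alone and 2 in WT 2 alone. Over the series these patterns held 9.26% and 14.0% of all regions.

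On chromosome 8 the 356 kb between Irx3 and Irx5 held 5 regions. The strongest, 186169 bp from Irx3 (91987823 to 91988396), was called in all hearts at −log10 p of 75.1, 73.4, 32.6 and 34.6 in WT 1, WT 2, edKO 1 and edKO 2. Both edKO values lay below both WT values, an order that unscaled pileups had at 84.3% of the shared regions of the series. Between Irx5 and Irx6 a single region, 131961 bp from Irx5 (92493417 to 92493799), was called in all hearts, at 15.8, 48.1, 19.6 and 10.1 with overlapping groups.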
